A study of Mus musculus with 32 samples.

Results

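The genes described here make, inactivate and sense prostaglandins in the uterus of newborn mice. The set holds 10 genes, chosen by their known roles but with earlier results of these data known. Counts of its genes beside the share of all genes therefore describe the set and are no independent test. Each gene was read from the array probes annotated to exactly 1 of these symbols. Of the 10 genes 9 were measured, with 25 probes, of which 24 passed the filter on dim probes. No probe annotated to Ptgs1, the gene of the constitutive cyclooxygenase, was among those used here, so it has no value. The 9 genes stood among 17145 genes tested, and no member was lost to the filter.

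Prostaglandins are lipid signals made from arachidonic acid that phospholipases free from membranes. Cyclooxygenases (Ptgs1, Ptgs2) turn it into an unstable intermediate, terminal synthases (Ptges, Ptges2, Ptgis) turn this into prostaglandin E or prostacyclin, and the dehydrogenase Hpgd inactivates the product. G protein-coupled receptors read the signal: Ptger2 and Ptger4 raise cyclic AMP, Ptger3 mostly lowers it, and Ptgfr, the receptor for prostaglandin F, releases calcium. In the adult uterus these genes are known for roles in implantation, decidualisation, contraction of the myometrium and labour.

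Total RNA of whole uteri from CD-1 female mice at postnatal day 5 was hybridised to 32 single-colour arrays, 4 in each of 8 groups. In the Foxa2 line and in the Foxo1 line, conditional knockout (cKO) and wild-type (WT) females had all received diethylstilbestrol (DES), a synthetic estrogen, and no vehicle group of these lines was analysed here. In the Esr1 line, which targets the gene of estrogen receptor alpha, the groups were cKO with DES, WT with DES, cKO with vehicle and WT with vehicle. The series' design calls the 4 samples of a group biological replicates. The labels used here give neither the dose of DES, nor the Cre driver and the cells it acts in, nor litters. A level is given as log2 intensity minus the array's own 75th percentile, so 0 is the brightness of that percentile and 1 unit is a doubling. A probe's level was not set against another probe's. Changes are limma estimates ± SE (n = 4 arrays a group), with p-values adjusted by Benjamini-Hochberg over the 17145 genes, and a gene is called at an adjusted p under 0.05.

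The targeted genes were checked first. Esr1 averaged 0.27 ± 0.15 in cKO and 2.23 ± 0.10 in WT uteri under DES (SD, n = 4 each), a change of -1.96 ± 0.40 (limma adjusted p = 3.91e-04). Under vehicle Esr1 averaged 2.55 ± 0.18 in cKO and 3.29 ± 0.80 in WT uteri, and the difference was not called (-0.74 ± 0.40, limma adjusted p = 0.33); replicate 4 of WT, at 4.43, was the highest, and without it the difference was -0.36 ± 0.40 (limma adjusted p = 0.991). Foxa2 changed by -2.99 ± 0.40 in Foxa2 cKO against WT uteri (limma adjusted p = 4.47e-05; -3.45 ± 0.37 without replicate 1 of WT), and Foxo1 by -2.64 ± 0.19 in Foxo1 cKO against WT uteri (limma adjusted p = 1.04e-09). A pair of arrays stood apart in brightness: replicate 1 of Foxa2 WT had a 75th percentile of 9024 intensity units and replicate 4 of Esr1 WT with vehicle one of 551, while the other 30 lay between 697 and 1787. Where leaving out either array ended the call of a gene named below, or moved its called value by over 1.5 times, the value without it is given. The uterine markers Hoxa10, Hoxa11, Wnt7a, Esr1, Pgr, Wnt5a and Msx1 were all measured, with a mean level per array between 0.17 and 1.81. Ovary markers had a mean level between -4.80 and -3.11 on the 32 arrays. The 2 oviduct and ciliated cell markers lay between -2.84 and -0.02 and varied within groups, as from -2.66 to -0.14 in Esr1 cKO with DES. Whether oviduct tissue was present was not tested.

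To show the DNA that lies before Ptgfr and Ptger4, whose DES response differed with Esr1 genotype, and before Ptgs2 and Hpgd, the enzyme genes of the set with the largest changes, the 250 bases before the annotated start of these 4 genes are printed from RefSeq (GRCm38.p6), read 5′ to 3′ on the gene's own strand. Capitals mark every GC box (GGGCGG, or CCGCCC on the other strand) and every GGTCA core of an estrogen-response element (TGACC on the other strand), and where 2 GC boxes overlap the capitals run together.
Ptgfr, chr3:151837529-151837778, minus strand: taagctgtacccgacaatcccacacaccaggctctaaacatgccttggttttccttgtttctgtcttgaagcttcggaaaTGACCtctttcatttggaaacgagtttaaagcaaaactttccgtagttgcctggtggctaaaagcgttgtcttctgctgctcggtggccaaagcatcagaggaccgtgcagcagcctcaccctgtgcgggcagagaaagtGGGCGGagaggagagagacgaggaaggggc
Ptger4, chr15:5244188-5244437, minus strand: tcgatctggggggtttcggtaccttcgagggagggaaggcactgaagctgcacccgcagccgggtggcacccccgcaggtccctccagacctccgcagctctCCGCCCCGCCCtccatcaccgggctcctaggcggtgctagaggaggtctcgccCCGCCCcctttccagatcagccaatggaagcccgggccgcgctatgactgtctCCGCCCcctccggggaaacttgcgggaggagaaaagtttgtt
Ptgs2, chr1:150099781-150100030, plus strand: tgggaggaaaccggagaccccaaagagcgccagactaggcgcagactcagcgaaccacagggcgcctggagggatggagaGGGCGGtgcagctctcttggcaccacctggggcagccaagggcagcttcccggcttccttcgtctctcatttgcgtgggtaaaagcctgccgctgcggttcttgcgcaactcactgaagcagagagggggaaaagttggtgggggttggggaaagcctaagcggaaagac
Hpgd, chr8:56294302-56294551, plus strand: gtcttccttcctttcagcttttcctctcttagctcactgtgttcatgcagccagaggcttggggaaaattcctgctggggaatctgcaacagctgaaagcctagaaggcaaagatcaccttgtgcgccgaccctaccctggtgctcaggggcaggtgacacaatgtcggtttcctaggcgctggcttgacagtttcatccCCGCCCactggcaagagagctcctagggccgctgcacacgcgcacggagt

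RefSeq promoters were found for 9 of the 10 genes, all but Ptgis. The full palindromic estrogen-response element (GGTCA, 3 free bases, TGACC) was in 0 of the 9 and in 0.0639% of 32851 promoters of the same length. Its core GGTCA, on either strand, was in 3 of the 9 (Ptgs1, Ptges and Ptgfr), against 35.2% of all promoters. The GC box was in 6 of the 9 (Ptgs2, Ptges, Hpgd, Ptger3, Ptger4 and Ptgfr), against 32.7% of all, and Ptger4 held 4 copies of it. The E-box CACGTG was in Ptges2 alone among the 9, against 6.02% of all. None of the 9 held the forkhead core TGTTTAC, the AP-1 site TGANTCA, the cyclic AMP element TGACGTCA or the TATA box TATAAA, which were in 3.17%, 6.75%, 1.55% and 12.4% of all promoters. All motifs were searched on both strands, and a match describes the letters and shows no binding. Only the 250 bases before each annotated start were searched. A motif farther upstream or after that start would be missed, so absence here does not mean that a gene lacks the motif.

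With DES, WT uteri of the Esr1 line had less RNA of the inducible cyclooxygenase and more of the inactivating dehydrogenase, and receptor genes changed in both directions. Ptgs2, Ptges, Ptger2, Ptger3 and Ptgfr fell, and Ptges2, Hpgd and Ptger4 rose. In Esr1 cKO uteri Hpgd and Ptger4 still rose and Ptgs2 and Ptger3 still fell, while the changes of Ptgfr, Ptger2, Ptges and Ptges2 were not called. Of the 9 measured genes, 4 were thus called in cKO uteri (2 higher, 2 lower) against a background of 8.98% of all genes, and 8 in WT uteri (3 higher, 5 lower) against 51.8%. In cKO uteri 6.39% of all genes were called higher and 2.58% lower, and in WT uteri 21.5% and 30.3%. The median change over the 9 genes was 0.21 in cKO and -0.59 in WT uteri, beside -0.04 and -0.16 over all genes tested. The share of 8 in 9 in WT uteri is read against a background in which over 1 gene in 2 was called. Arrays with DES and vehicle did not overlap for 6 of 9 genes in cKO uteri (30.8% of all genes) and for 8 of 9 in WT uteri (50.5% of all genes). Without the dim replicate 4 of WT with vehicle, 7 of 9 were called in WT uteri, all but Ptges and Ptgis, with changes of -2.08 for Ptgs2, 1.47 for Hpgd, -1.56 for Ptger2, -1.59 for Ptger3, 3.00 for Ptger4 and -2.31 for Ptgfr.

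**Figure D1:**
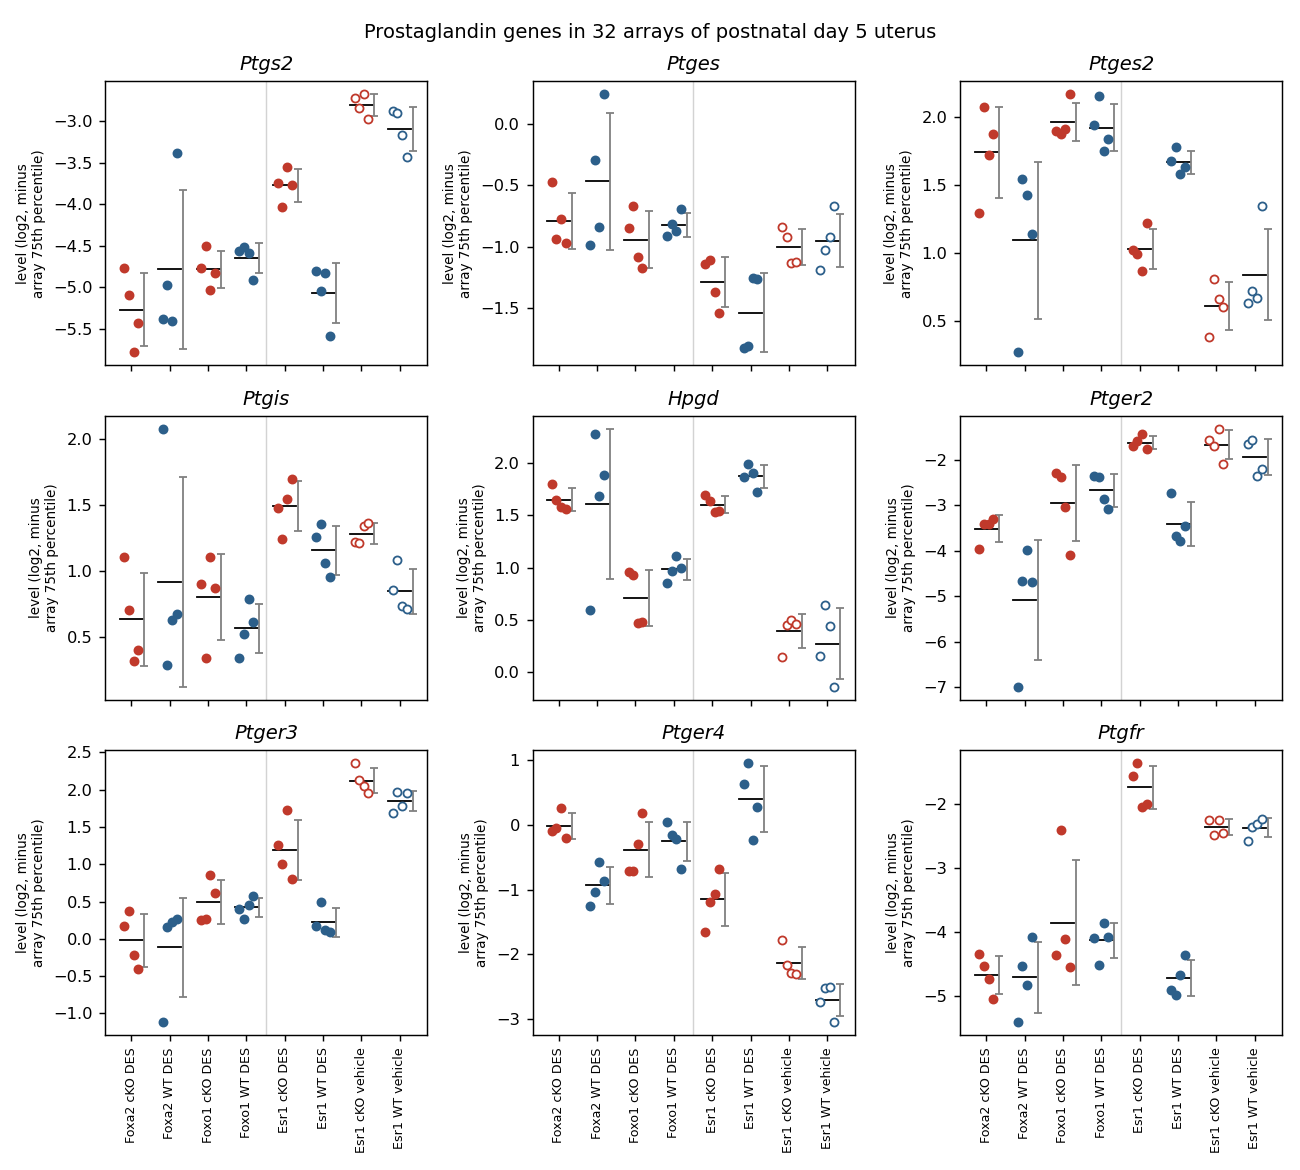
Level of each of the 9 measured genes on each of the 32 arrays, as log2 intensity minus the array's 75th percentile, in the 8 groups. Red points are cKO and blue points WT, filled points DES and open points vehicle, black lines group means and grey bars 1 SD (n = 4); Ptgfr of Esr1 cKO uteri with DES lies between -2.04 and -1.36, above all 4 WT arrays with DES.

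Among the 4 measured synthesis enzymes of the set, Ptgs2, the inducible cyclooxygenase, showed the largest change in both genotypes. In Esr1 cKO uteri its level was -3.74, -4.03, -3.55 and -3.77 with DES, against -2.73, -2.84, -2.68 and -2.98 with vehicle. In WT uteri it was -4.80, -5.04, -4.83 and -5.58 with DES, against -2.88, -2.90, -3.17 and -3.43 with vehicle. DES arrays lay below vehicle arrays in both genotypes without overlap, and the WT arrays with DES were the lowest of the 4 groups. Ptgs2 fell by 0.97 ± 0.29 in cKO (limma adjusted p = 0.0346) and by 1.97 ± 0.29 in WT uteri (limma adjusted p = 2.74e-06), a level 3.91-fold lower with DES in WT. The change in cKO minus that in WT was 1.00 ± 0.41 and was not called (limma adjusted p = 0.0726). It was called without both arrays that stood apart (1.11 ± 0.41, limma adjusted p = 0.032). The call of Ptgs2 in cKO uteri was lost under quantile normalization (limma adjusted p = 0.153), under median scaling (0.0607) and in 7 of 8 fits without 1 replicate of these groups. The platform carried 11 features annotated to Ptgs2. In WT uteri all 11 were called lower, with changes between -2.06 and -1.59, and in cKO uteri 5 of 11. Whether some of these features are copies of 1 probe could not be worked out, so they are not counted as independent probes.

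The 3 terminal synthases moved less. Ptges, the inducible microsomal prostaglandin E synthase, lay between -1.54 and -1.11 with DES and between -1.14 and -0.84 with vehicle in cKO uteri. In WT uteri it lay between -1.83 and -1.26 with DES, below the vehicle range of -1.19 to -0.67. It fell in WT uteri (-0.59 ± 0.20, limma adjusted p = 0.0168), a call lost under median scaling (-0.34, limma adjusted p = 0.181) and without replicate 4 of WT with vehicle, or replicate 1 or 2 of WT with DES (limma adjusted p = 0.0578 to 0.0663). The change in cKO uteri was -0.29 ± 0.20 (limma adjusted p = 0.522). Ptges2, which encodes another, membrane-associated prostaglandin E synthase, moved the other way. It lay between 0.87 and 1.23 with DES, above the vehicle range of 0.39 to 0.81, in cKO uteri, yet the change of 0.41 ± 0.21 was not called (limma adjusted p = 0.266). In WT uteri Ptges2 was 1.68, 1.78, 1.58 and 1.63 with DES, against 0.63, 0.72, 0.67 and 1.34 with vehicle, and rose by 0.82 ± 0.21 (limma adjusted p = 0.0014). The vehicle array at 1.34 was the dim one, and without it the rise was 0.99 ± 0.20. Ptgis, the prostacyclin synthase, was called in neither genotype, with 0.21 ± 0.25 in cKO and 0.31 ± 0.25 in WT uteri (limma adjusted p = 0.772 and 0.302).

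Hpgd, whose product begins the inactivation of prostaglandins, rose in both genotypes. In cKO uteri its level was 1.70, 1.64, 1.53 and 1.54 with DES, against 0.14, 0.45, 0.50 and 0.46 with vehicle. WT uteri had 1.87, 2.00, 1.91 and 1.73 with DES, against 0.15, 0.64, 0.44 and -0.14 with vehicle. Every DES array exceeded every vehicle array of its genotype by over 1 unit. The rise was 1.22 ± 0.22 in cKO (2.32-fold, limma adjusted p = 3.08e-04) and 1.60 ± 0.22 in WT uteri (3.04-fold, limma adjusted p = 8.29e-07). The rises differed by -0.39 ± 0.31, cKO minus WT, which was not called (limma adjusted p = 0.383). Of 3 Hpgd probes 2 were called higher in both genotypes; the third, with a mean level of -4.39, changed by 0.71 ± 0.44 in cKO and -0.18 ± 0.44 in WT uteri and was called in neither.

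The 2 genes whose DES response was called different between the Esr1 genotypes were both receptors, Ptgfr and Ptger4. The difference in response, cKO minus WT, was called for 2 of 9 genes (1 positive, 1 negative), beside 27.3% of all genes tested (15.4% positive, 11.9% negative). Without both arrays that stood apart it was called for 6 of 9, beside 42.4% of all genes. The added 4 were Ptgs2, Ptges2 (-0.58 ± 0.19, limma adjusted p = 0.019), Ptger2 and Ptger3. The count of 2 in 9 is no larger than the background share.

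Ptgfr fell with DES in WT uteri and not in cKO uteri. In cKO uteri its level was -1.56, -1.36, -2.04 and -2.00 with DES, against -2.25, -2.48, -2.25 and -2.46 with vehicle. In WT uteri it was -4.90, -4.99, -4.67 and -4.36 with DES, against -2.58, -2.36, -2.31 and -2.24 with vehicle. The vehicle groups overlapped, while under DES the cKO arrays were the highest and the WT arrays the lowest of the 4 groups, with no overlap. The change was 0.62 ± 0.31 in cKO (limma adjusted p = 0.286) and -2.36 ± 0.31 in WT uteri (limma adjusted p = 4.69e-07), 5.13-fold lower with DES in WT. The changes differed by 2.97 ± 0.44 (limma adjusted p = 1.35e-05), and this call held in all 29 alternatives tried. A second Ptgfr probe gave a difference of 3.73 ± 0.42 (limma adjusted p = 3.13e-07 over 29367 probes). Of its promoter printed above, the GGTCA core lies on the other strand at -170 to -166 from the start and the GC box at -30 to -25.

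Ptger4 rose with DES in both genotypes, and by less in cKO uteri. In cKO uteri its level was -1.66, -1.19, -1.08 and -0.68 with DES, against -1.79, -2.17, -2.29 and -2.30 with vehicle. WT uteri had 0.63, 0.96, -0.24 and 0.28 with DES, against -2.74, -2.52, -2.51 and -3.04 with vehicle. The DES arrays lay above the vehicle arrays in both genotypes, narrowly in cKO uteri and by over 2 units in WT uteri. The rise was 0.99 ± 0.24 in cKO (1.98-fold, limma adjusted p = 0.00671) and 3.11 ± 0.24 in WT uteri (8.65-fold, limma adjusted p = 2.02e-11). The difference was -2.13 ± 0.34 (limma adjusted p = 3.44e-05) and was called in all 29 alternatives. The 4 GC boxes of the printed Ptger4 promoter lie between -148 and -37 from the start, and no GGTCA core is among its letters.

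Ptger2 and Ptger3 fell in WT uteri. Ptger2 was -1.70, -1.58, -1.44 and -1.77 with DES and -1.57, -1.68, -1.31 and -2.09 with vehicle in cKO uteri. In WT uteri it was -2.73, -3.68, -3.78 and -3.45 with DES, against -1.65, -1.56, -2.35 and -2.21 with vehicle. The cKO groups overlapped throughout, and the WT groups did not. The change was 0.04 ± 0.43 in cKO (limma adjusted p = 0.98) and -1.47 ± 0.43 in WT uteri (limma adjusted p = 0.005). The difference between the genotypes, 1.51 ± 0.60, was not called (limma adjusted p = 0.0618), and was called without both arrays that stood apart (1.60 ± 0.45, limma adjusted p = 0.00624). Ptger3 was 1.25, 1.00, 1.73 and 0.80 with DES in cKO uteri, against 2.35, 2.12, 2.05 and 1.96 with vehicle. WT uteri had 0.17, 0.50, 0.12 and 0.09 with DES, against 1.68, 1.97, 1.78 and 1.96 with vehicle. DES arrays of each genotype lay below its vehicle arrays. Ptger3 fell by 0.93 ± 0.24 in cKO (limma adjusted p = 0.0102) and by 1.63 ± 0.24 in WT uteri (limma adjusted p = 2.01e-06), and the difference of 0.70 ± 0.34 was not called (limma adjusted p = 0.124). The Ptger3 call in cKO uteri was lost with the mean of its 3 probes (-0.51, limma adjusted p = 0.294) and without replicate 4 of cKO with DES (limma adjusted p = 0.0577).

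**Figure D2:**
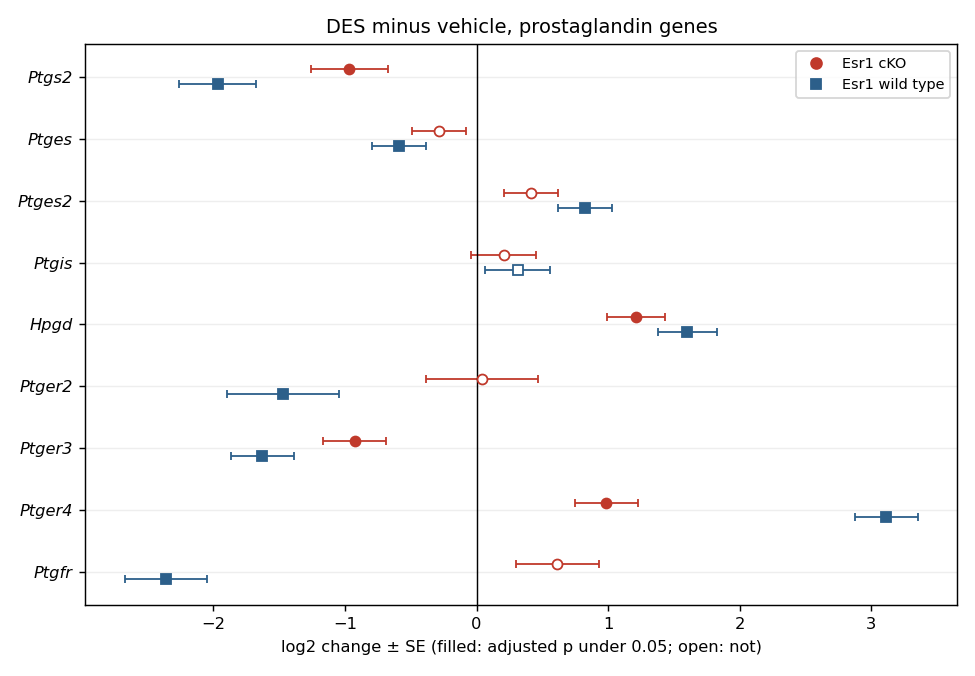
DES minus vehicle as log2 change (horizontal axis, ± SE, n = 4 arrays a group) for the 9 measured genes in Esr1 cKO (red circles) and Esr1 WT uteri (blue squares); filled symbols passed an adjusted p under 0.05. Ptgfr stands at 0.62 in cKO and -2.36 in WT uteri, and Ptger4 at 0.99 in cKO and 3.11 in WT uteri.

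Markers of the cell types of a whole uterus moved with DES as well. In bulk tissue, fewer cells of a type and less RNA per cell cannot be told apart. All 7 epithelial markers were called higher in WT uteri with DES, with a mean level per array of 4.89 to 5.19 against 3.58 to 4.37 with vehicle. Smooth muscle markers were called lower for 5 of 6, with 3.77 to 4.08 against 4.58 to 4.94. The 4 measured of 6 leukocyte markers were all called higher, with 0.45 to 0.71 against -2.36 to -2.13, and the 4 mast cell markers all lower, with -3.05 to -2.60 against -1.19 to -0.85. Endothelial markers were called lower for 3 of 5 and stromal markers for 2 of 6, with 1 stromal marker higher. Beside these counts, 21.5% of all genes were called higher and 30.3% lower in WT uteri. In cKO uteri the counts were 2 of 7 epithelial markers higher, 0 of 6 smooth muscle markers, 2 of 4 leukocyte markers higher and 1 of 4 mast cell markers lower. There 0 of 5 endothelial markers were called, and of 6 stromal markers 1 was higher and 1 lower. Of all genes, 6.39% were called higher and 2.58% lower in cKO uteri. The part of these cell types in the changes of the prostaglandin genes was not tested.

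Set directly against WT uteri under DES, Esr1 cKO uteri had more Ptgfr, Ptger2, Ptgs2 and Ptger3 and less Ptger4 and Ptges2. These are 6 of 9 genes called (4 higher, 2 lower), beside 30.5% of all genes (16.6% higher, 13.9% lower). The samples are the DES groups whose levels are given above, and for each of the 6 genes, and for Hpgd, the cKO and WT arrays did not overlap (47% of all genes). Ptgfr was 2.99 ± 0.31 higher (7.93-fold, limma adjusted p = 2.11e-08), Ptger2 1.79 ± 0.43 higher (3.46-fold, 0.00166), Ptgs2 1.29 ± 0.29 higher (2.45-fold, 0.00106) and Ptger3 0.97 ± 0.24 higher (1.97-fold, 0.0021). Ptger4 changed by -1.56 ± 0.24 (2.95-fold lower, limma adjusted p = 1.03e-05) and Ptges2 by -0.64 ± 0.21 (limma adjusted p = 0.0182; 0.0544 without replicate 3 of cKO with DES). All 11 Ptgs2 features, some of which may be copies of 1 probe, and both Ptgfr probes were called higher. Of 3 Ptger3 probes only 1 was called higher. The others changed by 0.91 ± 0.43 and 0.48 ± 0.50 (limma adjusted p = 0.123 and 0.53 over 29367 probes). Hpgd, Ptges and Ptgis were not called, with differences of -0.27, 0.25 and 0.33. Between these groups all 4 mast cell markers and 3 of 6 smooth muscle markers were called higher in cKO and 5 of 7 epithelial markers lower; their part was not tested.

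With vehicle, limma called 0 of 9 genes between Esr1 cKO and WT uteri, beside 7.48% of all genes, and the arrays did not overlap for 2 of 9 (16% of all genes). Of the 9, 1 had an unadjusted p under 0.05. That gene was Ptger4, at -2.30 to -1.79 in cKO and -3.04 to -2.51 in WT uteri, which did not overlap (0.57 ± 0.24, limma adjusted p = 0.18). Ptgis, at 1.21 to 1.36 in cKO and 0.71 to 1.08 in WT uteri, did not overlap either (0.44 ± 0.25, limma adjusted p = 0.352). The other differences lay between -0.23 and 0.29. The 2 vehicle groups are also the reference of the DES responses above, so these values are not independent of them.

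In Foxa2 cKO uteri under DES, Ptger2 and Ptger4, both receptors that raise cyclic AMP, were higher than in WT uteri, and these calls rested on few arrays. They were 2 of 9 genes called (2 higher, 0 lower), beside 2.21% of all genes (1.11% higher, 1.1% lower). Ptger2 was -3.96, -3.40, -3.40 and -3.31 in cKO, against -6.99, -4.66, -3.98 and -4.69 in WT uteri. The WT value of -6.99 lay under its array's 30th percentile (-5.70), where readings are dim, and that of -4.66 just above its own (-4.75). Ptger4 was -0.09, -0.04, 0.27 and -0.20 in cKO, against -1.26, -1.04, -0.57 and -0.86 in WT uteri. For both genes, and for none of the other 7, every cKO array lay above every WT array (5.43% of all genes did not overlap), and the lowest WT array was replicate 1, the brightest of the 32. Ptger2 was 1.56 ± 0.43 higher (2.95-fold, limma adjusted p = 0.0485) and Ptger4 0.92 ± 0.24 higher (1.89-fold, limma adjusted p = 0.039). Without that array the differences were 0.92 ± 0.33 for Ptger2 and 0.81 ± 0.25 for Ptger4, and neither was called (limma adjusted p = 0.194 and 0.118).

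Replicates 1 and 2 of the Foxa2 and Foxo1 lines differed from replicates 3 and 4 in their lowest intensity (3.59 to 14.9 against 1.87 to 2.44), so both values were also taken within each pair of replicates. Ptger2 was 2.15 higher within replicates 1 and 2 and 0.98 within replicates 3 and 4 (limma adjusted p = 0.0337 and 0.252). Ptger4 was 1.08 higher within replicates 1 and 2 and 0.75 within replicates 3 and 4 (limma adjusted p = 0.0691 and 0.382). Both directions held within each pair. With the replicate number as a block, neither was called (limma adjusted p = 0.0587 and 0.058). The remaining 7 genes lay between -0.49 and 0.64. The highest of them was Ptges2, at 1.29, 2.08, 1.72 and 1.87 in cKO and 0.27, 1.54, 1.43 and 1.14 in WT uteri, which overlapped (limma adjusted p = 0.103).

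In Foxo1 cKO uteri under DES, limma called 0 of 9 genes, beside 0.222% of all genes, and none of the 9 had an unadjusted p under 0.05. The differences lay between -0.28 (Ptger2) and 0.28 (Ptgfr), each with an SE between 0.20 and 0.43, and the groups overlapped for all 9 (8.09% of all genes did not overlap). This fit did not pair same-numbered arrays, and with the replicate number as a block limma also called 0 of 9. Ptgfr was -4.36, -2.41, -4.12 and -4.55 in cKO and -4.09, -4.51, -3.86 and -4.08 in WT uteri, so its mean rested on 1 high cKO array. Ptger4 was -0.72, -0.71, -0.30 and 0.18 in cKO and 0.04, -0.15, -0.22 and -0.67 in WT uteri. The 2 deletions were compared directly as the Foxa2 difference minus the Foxo1 difference. None of the 9 was called (0.957% of all genes were), although 3 had an unadjusted p under 0.05: Ptger2 (1.84 ± 0.60, limma adjusted p = 0.196), Ptger4 (1.05 ± 0.34, 0.187) and Ptges2 (0.60 ± 0.29, 0.501).

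**Figure D3:**
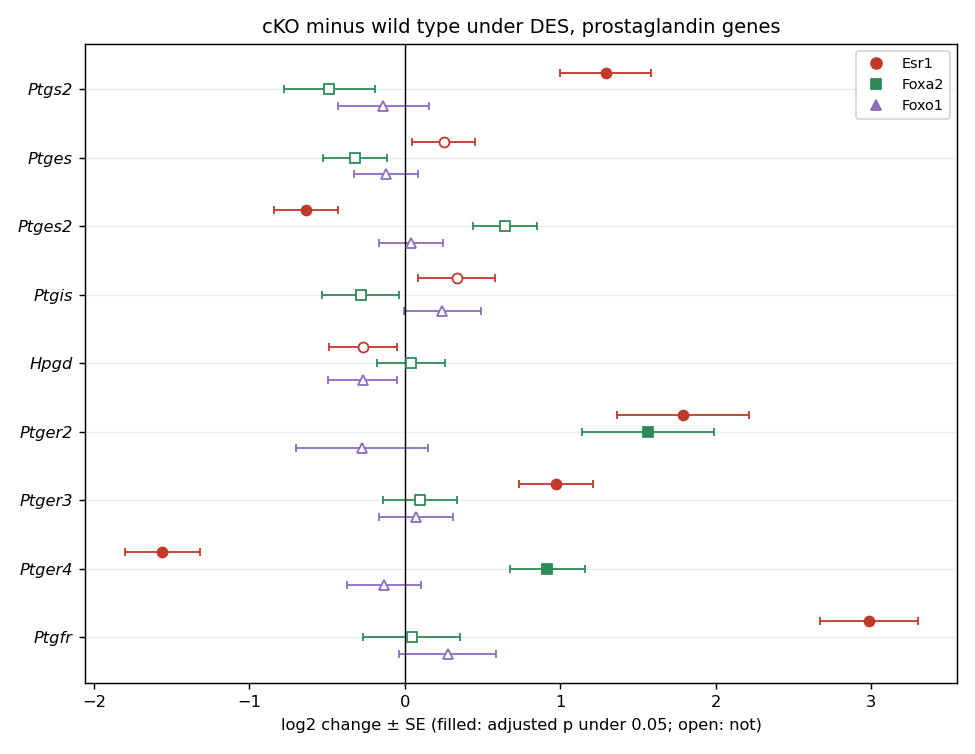
cKO minus WT under DES as log2 change (horizontal axis, ± SE, n = 4 arrays a group) for the 9 measured genes in the Esr1 (red circles), Foxa2 (green squares) and Foxo1 lines (purple triangles); filled symbols passed an adjusted p under 0.05. Ptger4 stands at -1.56 in the Esr1 line and 0.92 in the Foxa2 line, and all 9 Foxo1 values are open and within 0.28 of 0.

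WT uteri under DES were also set side by side across lines, where line, litter and hybridisation cannot be told apart. Against Esr1-line WT uteri, 4 of 9 genes were called in Foxa2-line WT uteri (1 higher, 3 lower, beside 35.3% of all genes, 24.8% higher and 10.5% lower) and 3 in Foxo1-line WT uteri (1 higher, 2 lower, beside 35.2% of all genes, 24.9% higher and 10.2% lower). Ptges was higher in both, by 1.07 ± 0.20 in the Foxa2 line and 0.72 ± 0.20 in the Foxo1 line (limma adjusted p = 2.26e-04 and 0.00718). Ptger4 was lower in both, with -1.34 ± 0.24 in the Foxa2 line and -0.66 ± 0.24 in the Foxo1 line (limma adjusted p = 1.19e-04 and 0.0336). The Foxo1-line Ptger4 call was lost in 6 of 21 alternatives, among them the fits without replicate 1 or 2 of Esr1-line WT and without replicate 3 or 4 of Foxo1-line WT (limma adjusted p = 0.0569 to 0.151). Ptger2 (-1.67 ± 0.43, limma adjusted p = 0.00361) and Ptges2 (-0.57 ± 0.21, 0.0316) were lower in the Foxa2 line, and Hpgd (-0.89 ± 0.22, 0.00237) in the Foxo1 line. Without replicate 1 of Foxa2 WT, the Ptges2 call was lost (-0.30 ± 0.17, limma adjusted p = 0.16) and Ptger2 stood at -1.03 ± 0.33 (limma adjusted p = 0.0145). Ptger3, read from its brightest probe, was called in neither line (-0.34 in the Foxa2 line, 0.20 in the Foxo1 line). Its other probes disagreed. The dimmest, with a mean level of -6.61, was called higher in both (2.68 and 3.71, limma adjusted p = 2.08e-04 and 1.65e-06 over 29367 probes). The remaining probe was called in neither (-1.05 and -0.20). The 2 comparisons share the Esr1-line WT arrays.

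Across the 8 groups, Ptgs2 averaged highest in the Esr1-line vehicle groups, then in Esr1 cKO with DES, and lowest in the other 5 DES groups, whose arrays overlapped from neighbour to neighbour. Its highest group mean was -2.80 ± 0.13 (Esr1 cKO, vehicle) and its lowest -5.27 ± 0.44 (Foxa2 cKO, DES). Ptgs2 lay under the array's 30th percentile on 1 Foxa2 cKO and 1 Foxa2 WT array, and at it in replicate 1 of Foxo1 cKO. That percentile ran from -6.45 (Esr1 WT with DES) to -4.73 (Foxo1 cKO). At such dim levels neither the order of these groups nor a fall of Ptgs2 without Foxa2 or Foxo1 can be read. Ptgfr had its highest mean in Esr1 cKO with DES (-1.74 ± 0.33) and its lowest in Esr1 WT with DES (-4.73 ± 0.28), and only the top group stood clear of its neighbour. Ptger4 was highest in Esr1 WT with DES (0.41 ± 0.51) and lowest in Esr1 WT with vehicle (-2.70 ± 0.25); the 2 vehicle groups stood clear at the bottom while the 6 DES groups overlapped from neighbour to neighbour. Hpgd was highest in Esr1 WT with DES (1.87 ± 0.11) and lowest in Esr1 WT with vehicle (0.27 ± 0.34), with a gap of 0.62 between the means of Esr1 cKO and Foxo1 WT uteri under DES. Ptger2 was highest in Esr1 cKO with DES (-1.62 ± 0.15) and lowest in Foxa2 WT (-5.08 ± 1.32).

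Genes were also ranked by how closely their profile over the 32 arrays followed each member, as the root mean square difference of the centred levels. Gene models without an established name, picked out by the form of their symbol, were left out of this ranking. Nearest to Ptgs2 were Sh3rf2 (0.37), Lysmd2 (0.42) and its fellow member Ptger3 (0.43), beside Ptgs2's own SD over arrays of 0.95. Nearest to Ptger3 was Lysmd2 too (0.29, own SD 0.85). Nearest to Ptger4 was Rassf5 (0.33, own SD 1.04), to Ptgfr the aquaporin gene Aqp11 (0.43, own SD 1.21), to Ptger2 the growth factor gene Artn (0.47, own SD 1.22) and to Hpgd the Fc receptor gene Fcgr2b (0.33, own SD 0.65). Nearest to Ptges2 was the mitochondrial nuclease gene Endog (0.18, own SD 0.55), to Ptges Cnpy4 (0.24, own SD 0.39) and to Ptgis Ikbkb (0.24, own SD 0.43).

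Other genes of the pathway were described from lists, written with earlier results of these data known. Their counts are read against the 8.98% of all genes called in Esr1 cKO and the 51.8% called in WT uteri with DES, as a description only. Upstream of the cyclooxygenases, DES called 1 of 8 measured phospholipase A2 genes in Esr1 cKO uteri (1 higher) and 5 of 8 in WT uteri (4 higher, 1 lower), the WT share lying near the background. The Pla2g6 call in WT uteri (0.41) was lost without replicate 4 of WT with vehicle (0.24, limma adjusted p = 0.0573). Pla2g5, a secreted phospholipase, changed by -0.17 ± 0.29 in cKO (limma adjusted p = 0.864) and fell by 3.46 ± 0.29 in WT uteri (limma adjusted p = 1.19e-10), a called difference of 3.29 ± 0.41. Pla2g2e rose by 1.83 in cKO and 2.24 in WT uteri. Pla2g4a, the cytosolic enzyme that supplies arachidonate to the cyclooxygenases, changed by 0.20, not called, in cKO uteri and rose by 0.79 in WT uteri (0.51 without that vehicle array). Among 6 measured other terminal synthases, 3 were called in cKO (2 higher, 1 lower) and 5 in WT uteri (3 higher, 2 lower). Hpgds, the hematopoietic prostaglandin D synthase, rose by 2.52 ± 0.47 in cKO and 6.12 ± 0.47 in WT uteri (limma adjusted p = 3.89e-04 and 1.49e-11). Ptgds, the other prostaglandin D synthase, fell by 1.43 in cKO and 1.24 in WT uteri.

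Of 6 other measured genes of transport and breakdown, 1 was called in cKO (higher) and 5 in WT uteri (all higher, as was Hpgd). Cbr2, a carbonyl reductase, rose by 4.94 in cKO and 6.93 in WT uteri. Slco2a1, the prostaglandin uptake transporter, changed by 0.36 in cKO (limma adjusted p = 0.295) and rose by 2.47 in WT uteri (limma adjusted p = 1.27e-11), a called difference of -2.11. Ptgr2, a prostaglandin reductase, changed by 0.51, not called, in cKO and rose by 1.32 in WT uteri. Of 4 other measured receptors, 1 was called in cKO (higher) and 3 in WT uteri (2 higher, 1 lower). Ptgir, the prostacyclin receptor, changed by 0.41, not called, in cKO and fell by 1.14 in WT uteri, a called difference of 1.55. Ptgdr2, a prostaglandin D receptor, changed by -0.33, not called, in cKO and rose by 1.53 in WT uteri; with vehicle it was 1.50 higher in cKO than in WT uteri (limma adjusted p = 6.61e-04). Ptger1 rose by 1.06 in cKO and 0.88 in WT uteri.

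**Figure D4:**
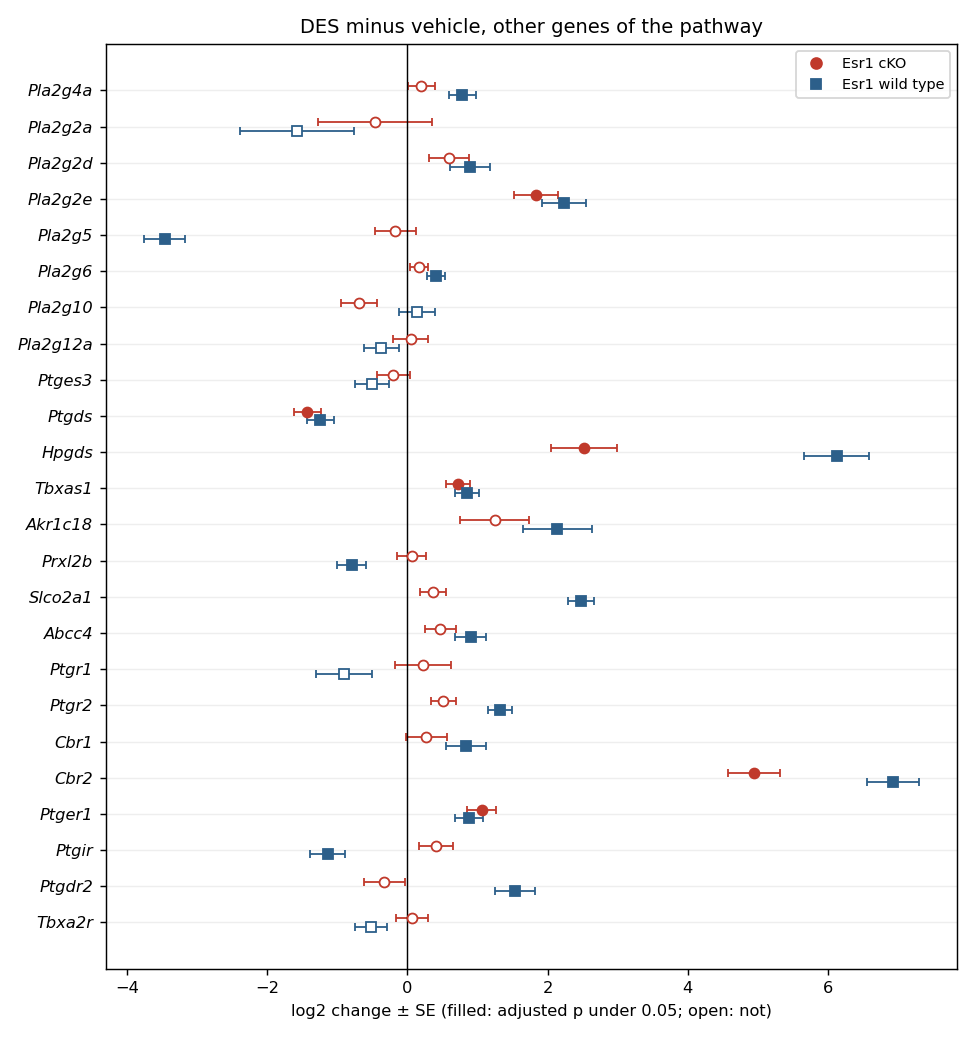
DES minus vehicle as log2 change (horizontal axis, ± SE, n = 4 arrays a group) for 24 other measured genes of arachidonate release, terminal synthesis, transport and breakdown, and reception, top to bottom, in Esr1 cKO (red circles) and Esr1 WT uteri (blue squares); filled symbols passed an adjusted p under 0.05. Cbr2 (4.94 in cKO, 6.93 in WT) and Hpgds (2.52 in cKO, 6.12 in WT) lie farthest right, and Pla2g5 (-0.17 in cKO, -3.46 in WT) has the lowest value.

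The list for the lipoxygenase branch, which competes for arachidonate, had 6 of 11 genes called in cKO uteri (6 higher), beside 8.98% of all genes. In WT uteri 8 of 11 were called (7 higher, 1 lower), beside 51.8% of all genes. This list, which also holds Ephx2, was written with earlier results of these data known. An excess over the share of all genes is therefore no independent evidence. Alox15 rose by 3.17 in cKO and 3.40 in WT uteri, and Alox5ap, the 5-lipoxygenase activating protein that leukocytes carry, by 1.46 in cKO and 3.44 in WT uteri. Of 10 factors known to induce or accompany Ptgs2 expression, 1 was called in cKO (higher), near the background share, and 7 in WT uteri (4 higher, 3 lower). Fos rose by 1.45 in cKO and 4.11 in WT uteri. Nfkbiz changed by 0.50, not called, in cKO and rose by 2.41 in WT uteri, while Il1r1, the interleukin 1 receptor, changed by -0.40, not called, in cKO and fell by 0.83 in WT uteri. Of the contraction genes, Oxtr, the oxytocin receptor, rose by 3.71 in cKO and 6.57 in WT uteri, and the gap junction gene Gja1 changed by 0.29, not called, in cKO and rose by 0.62 in WT uteri. The 2 Gja1 changes differed by -0.33, which was not called (limma adjusted p = 0.428).

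Without Foxa2, Pla2g10, a secreted phospholipase, fell by 3.07 (limma adjusted p = 2.44e-08), and the difference from its change without Foxo1 was called (-3.47, limma adjusted p = 3.37e-06). Cbr1 fell by 1.20 in Foxa2 cKO uteri, and Pla2g2d (1.10), Il1r1 (0.85) and Ptgds (0.72) rose. Without replicate 1 of Foxa2 WT, the calls of Pla2g2d (0.68, limma adjusted p = 0.14) and Ptgds (0.53, 0.162) were lost. Those of Pla2g10 (-2.97, limma adjusted p = 3.76e-07), Cbr1 (-0.66, 0.0151) and Il1r1 (0.77, 0.00115) were kept. In Foxo1 cKO uteri limma called 0 genes of these lists, where 0.222% of all genes were called, against 2.21% in Foxa2 cKO uteri. With so few calls, the 0 does not set these lists apart from other genes.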

How the data were processed

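The authors hybridised total RNA of frozen, pulverised uteri to single-colour (Cy3) Agilent arrays, per the labels' protocols. The submitters' processing notes name Agilent Feature Extraction 12 as the program that read the scans. The deposited intensity values are linear, between 1.87 and 922772; whether background was subtracted or arrays scaled is not given in the sources used here, and the number of arrays limits the precision. Of 45018 probes, 33653 had 1 gene symbol in GEO's platform annotation, 56 several and 11309 none; 33517 symbols were updated through RefSeq tables.

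From these values, log2 intensity minus each array's 75th percentile was computed. Probes above the array's 30th percentile on at least 4 arrays were kept (36657, of which 29367 had 1 symbol), and each of 17145 genes was read from its brightest probe. All 8 groups were fitted together with limma 3.58.1 (lmFit and eBayes, R 4.3.3, 24 residual degrees of freedom), and p-values were adjusted by Benjamini-Hochberg over all genes. The fit was tested on simulated data.

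Every member was named in every comparison, with up to 4 called genes of each pathway list per comparison and the 3 genes nearest to each member. The members and lists were chosen with earlier results of these data known. Scaling, filters, probe summary, samples in the fit, array weights, a replicate block and left-out arrays were tried as alternatives; those by pairs of replicates, and the left-out arrays for pathway and targeted genes, were chosen after seeing the data. Litters, slides and scan dates were not given in the sources used here. Same-numbered cKO and WT arrays of the Foxo1 line deviated together (correlations 0.29, 0.38, 0.36 and 0.33). The main fit did not pair them, and only the alternatives with a replicate block did. In the other comparisons correlations lay between -0.11 and 0.46 and not all exceeded 0.1. Coordinates are those of RefSeq's promoter table (GRCm38.p6); the array's own were not used.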

Additional observations from a re-analysis of the deposited data

Results flagged for a closer look

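The DES response of a pair of receptor genes differed between Esr1 cKO and WT uteri by a test of the difference itself: -2.13 for Ptger4 and 2.97 for Ptgfr (log2, cKO minus WT). Single arrays also stood far from the other 3 of their group, at a gap that chance gives in about 1 of 20 groups. The 9 measured members and the targeted genes were looked at in all 8 groups, so chance alone would give several such arrays. Among the members these were Ptges2 at 2.17 in replicate 4 of Foxo1 cKO (others 1.87 to 1.91) and at 1.34 in replicate 4 of Esr1 WT with vehicle (others 0.63 to 0.72). Hpgd was 0.14 in replicate 1 of Esr1 cKO with vehicle (others 0.45 to 0.50). Ptger2 was -3.96 in replicate 1 of Foxa2 cKO (others -3.40 to -3.31), and Ptger3 was -1.11 in replicate 1 of Foxa2 WT (others 0.16 to 0.27).

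Among the targeted genes, Foxa2 was 0.36 in replicate 2 of Foxa2 cKO (others -0.29 to -0.24) and 3.22 in replicate 4 of Foxo1 cKO (others 2.94 to 2.96). In replicate 1 of Foxa2 WT, the brightest array, Esr1 was 5.00 (others 2.02 to 2.25) and Foxo1 was 4.93 (others 3.60 to 3.78).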

How the results depend on the processing

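The WT calls for DES other than that of Ptges, the Hpgd and Ptger4 calls in Esr1 cKO uteri, the Ptger4 and Ptgfr differences in response, and the Esr1 cKO against WT calls under DES other than that of Ptges2 held under every alternative tried. The 2 Foxa2 calls did not: 12 of 24 alternatives lost Ptger2 and 13 of 24 lost Ptger4. The count of called Foxa2 genes was 1 with median scaling, with 16 added, with no probe filter, with the mean of a gene's probes and within replicates 1 and 2. It was 0 with only the compared groups, at an adjusted p under 0.01, without both arrays that stood apart and within replicates 3 and 4, and 5 with array weights. With the replicate number as a block (replicate block) it was also 0, and the block changed no other count. The difference in DES response was called for 5 genes with only the compared groups, and for 6 with array weights or without both arrays. In cKO uteri 2 genes were called at an adjusted p under 0.01. The Foxa2 minus Foxo1 difference was called for 5 genes with array weights. The Foxa2-line comparison of WT uteri called 1 gene with only the compared groups. The Foxo1-line one called 5 with the mean of probes, with only the compared groups or without both arrays, and 6 with array weights.

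Leaving out each replicate in turn gave counts of 2 to 4 (DES in cKO), 7 to 8 (DES in WT), 5 to 6 (Esr1 cKO against WT, DES), 2 to 3 (difference in response), 0 to 3 (Foxa2), 3 to 4 (Foxa2-line WT) and 2 to 3 (Foxo1-line WT), and 0 throughout for Esr1 under vehicle, Foxo1, and Foxa2 minus Foxo1.

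Signs turned only for differences that were not called; the cause was not tested. Under vehicle, Esr1 cKO minus WT turned for Ptges (0.023 with median scaling, 0.0011 with array weights, 0.042 without both arrays), for Hpgd (-0.029 with array weights, -0.020 without both arrays) and for Ptgfr (-0.016 with 16 added). In the Foxa2 comparison it turned for Hpgd (-0.17 mean of probes, -0.27 array weights, -0.30 without both arrays, -0.21 replicates 3 and 4), Ptger3 (-0.31 array weights, -0.23 without both arrays, -0.55 replicates 3 and 4), Ptgfr (-0.56, -0.19 and -0.44 under the same 3), Ptgis (0.11 without both arrays) and Ptgs2 (0.25 replicates 1 and 2). In the Foxo1 comparison it turned for Ptges2 (-0.11 median scaling, -0.016 array weights, -0.16 replicates 1 and 2), Ptger3 (-0.074 median scaling, -0.077 replicates 1 and 2) and Ptgfr (-0.14 mean of probes, -0.37 replicates 3 and 4). Within replicates 1 and 2 it also turned for Ptges (0.11), Hpgd (0.033) and Ptger2 (0.039), and within replicates 3 and 4 for Ptger4 (0.39).

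Without 1 replicate in turn, ranges that crossed 0 were, for Esr1 under vehicle, Hpgd -0.02 to 0.24, Ptges -0.13 to 0.042 and Ptgfr -0.054 to 0.059. For DES in cKO it was Ptger2 at -0.10 to 0.16. For Foxa2 they were Hpgd -0.30 to 0.26, Ptger3 -0.23 to 0.23, Ptgfr -0.19 to 0.26 and Ptgis -0.49 to 0.11, and for Foxo1 Ptger2 -0.50 to 0.10, Ptger3 -0.047 to 0.16, Ptges2 -0.028 to 0.12 and Ptgfr -0.21 to 0.51.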
